A study of Mus musculus with 2 samples.

Results

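The 35 genes described here encode proteins that the liver secretes into blood plasma, measured in RNA from mouse adrenal glands. They were taken by gene symbol from a fixed list, and all 35 were found among the 55536 genes of the deposited tables. The list was drawn up because RNA of liver genes had been seen at unequal levels in the 2 libraries of the series. The ratio between the libraries therefore served to choose the members, and it is given below as a description with no test.

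The glands came from B6CASTF1/J males aged 36 days, offspring of a cross between C57BL/6J and CAST/EiJ, and total RNA was sequenced. The 2 libraries form 1 group without a treated or mutant arm, each from 300 ng of RNA with ERCC spike-in RNA, and are named replicate 2 and replicate 1 after their labels. The labels conflict on the source: the biosample descriptions give the libraries separate animals, the library descriptions give both the same one. Any spread between the libraries may therefore be technical. Bulk RNA of a whole gland cannot tell fewer cells of a type apart from less RNA per cell.

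Plasma proteins of this set are made mainly by hepatocytes. They carry lipids, hormones, vitamins and heme, form clots, and hold proteases in check. Hepatocytes switch their genes on through a shared set of transcription factors, among them the HNF1, HNF4, FOXA and C/EBP families. The adrenal cortex is a customer of this system: it takes up cholesterol from the lipoprotein particles whose protein parts are encoded by several members. Some members are also known to be made elsewhere, such as haptoglobin and retinol-binding protein in fat.

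Depth was 30628771 expected counts in replicate 2 and 35813366 in replicate 1. The authors also give TPM, an abundance per length that adds up to the same total in each library. Nuclear protein-coding genes took 23.2% of that sum in replicate 2 and 31.0% in replicate 1, so equal TPM in both libraries is not an equal share of coding RNA. Ratios below are therefore expected counts of replicate 2 over replicate 1 after TMM scaling, with an exact 95% interval that covers counting error only, since reads carry no identifiers to separate copies of 1 molecule. Of the 7 adrenal cortex markers checked, all 7 reached 1 TPM in both libraries, led by Star at 2793 and 5580 TPM in replicates 2 and 1. In TMM-scaled counts all 7 were lower in replicate 2 (median log2 ratio -0.37), 1 of them at least 2-fold.

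All 35 members had counts in both libraries, and the set was several times more abundant in replicate 2. Their expected counts summed to 20808 in replicate 2 and 6680 in replicate 1. These were 0.117% and 0.0294% of the counts on nuclear protein-coding genes. Summed TPM was 413 in replicate 2 and 197 in replicate 1, or 305 ± 153 (mean ± SD, n = 2). Of the 35 members, 32 reached 1 TPM in replicate 2 and 14 in replicate 1, with 14 at that level in both. Over all 22015 nuclear protein-coding genes, 11526 were at 1 TPM or more in both libraries. At 10 or more expected counts, where no such count over all genes was taken, 33 members were present in both libraries. Apoa4 and Apom, with at most 7 counts in either, were the exceptions.

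**Figure D1:**
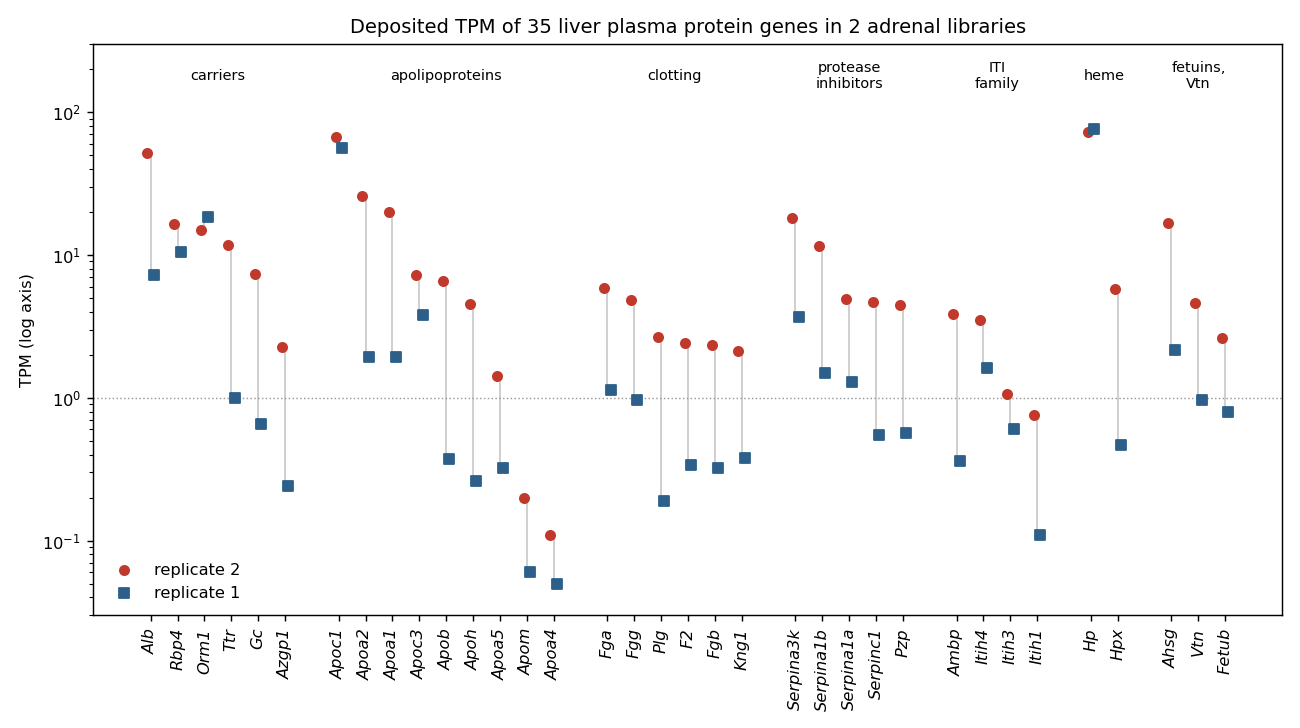
Deposited TPM of the 35 members (vertical log axis) in replicate 2 (circles) and replicate 1 (squares), 1 point per library, grouped by role and ordered within a role by replicate 2. Hp, Apoc1 and Orm1 lie close together in the 2 libraries, while Alb stands at 51.4 TPM in replicate 2 and 7.24 in replicate 1; the dotted line is 1 TPM.

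In TMM-scaled counts every member was higher in replicate 2, by 1.09-fold (Orm1) to 23.6-fold (Apoh), though Orm1, Hp and Apoc1 were lower when libraries were scaled by spike-in counts. Among genes averaging 1 CPM or more, 30 of 33 members were at least 2-fold higher in replicate 2 and none was 2-fold lower. Of all 14780 genes past that filter, 5.12% were at least 2-fold higher in replicate 2 and 1.74% at least 2-fold lower. At least 4-fold higher were 24 members, where the share of all genes was 1.47%, and at least 8-fold higher were 17, where it was 1.10%. The median log2 ratio was 3.11 over the 33 members, against 0.01 over all genes tested. Since members were picked with this ratio in view, these counts say only how large it is. Of the 33, 11 were under 1 CPM in replicate 1 and passed the filter through replicate 2 alone. The 22 members with at least 1 CPM in each library had a median log2 ratio of 2.80.

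**Figure D2:**
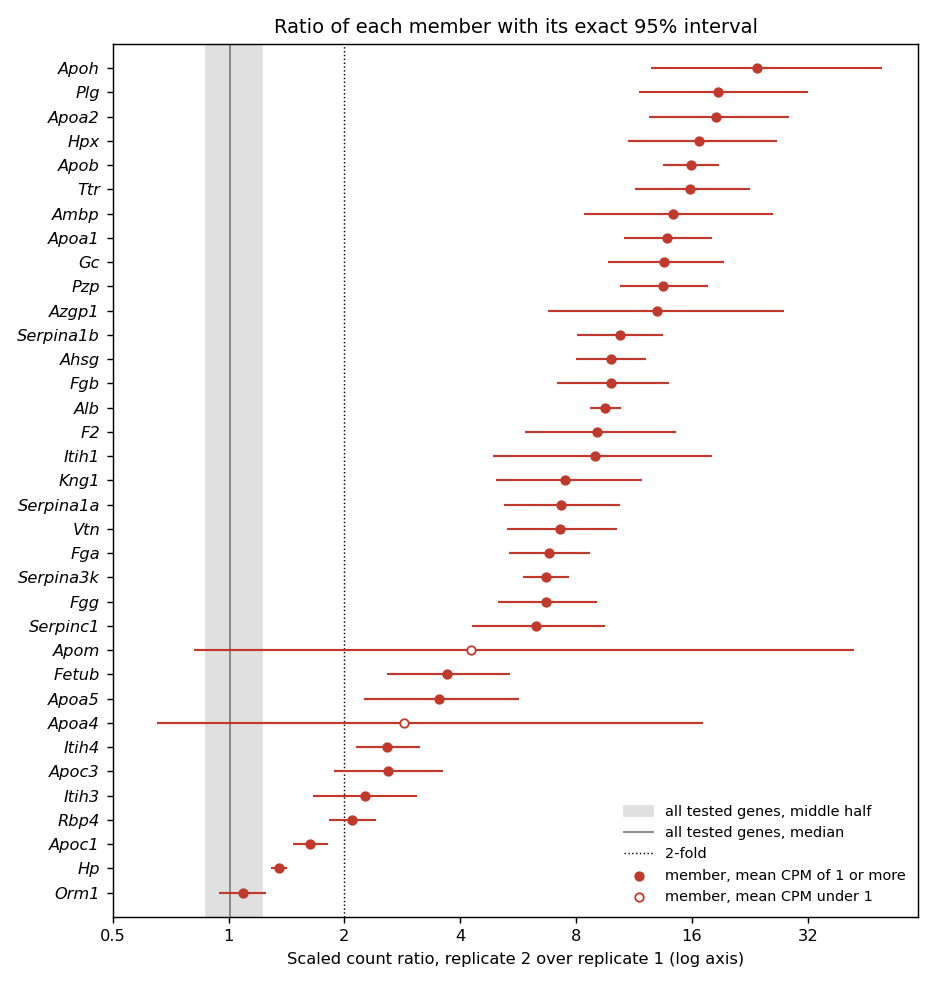
Scaled count ratio of each member, replicate 2 over replicate 1 (horizontal log axis), with its exact 95% interval as a bar. The members spread from Orm1 at 1.09 to Apoh at 23.6; the grey band holds all tested genes between their quartiles, the dotted line is 2-fold, and open circles are Apom and Apoa4, which averaged under 1 CPM.

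The members did not share a single ratio. Taking albumin as the yardstick, 17 other members had an interval that overlapped its own, 7 had an interval wholly above it and 10 an interval wholly below it. Apoa1, Apoa2, Apob, Apoh, Hpx, Plg and Ttr formed the upper set. Orm1, Hp, Apoc1, Rbp4, Itih3, Itih4, Apoc3, Apoa5, Fetub and Serpina3k formed the lower set. Spread between animals is not part of these intervals, and with 1 library on each side it cannot be measured.

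Albumin, Alb (ENSMUSG00000029368.10, chromosome 5, 90460897 to 90476602), the most abundant protein of plasma and a carrier of fatty acids and hormones, had 3865 expected counts in replicate 2 and 495 in replicate 1. In TPM it stood at 51.4 in replicate 2 and 7.24 in replicate 1, ranks 703 and 7096 among 22015 nuclear protein-coding genes. The scaled ratio was 9.53 (interval 8.68 to 10.5). The coding transcript Alb-201 held 100% of the gene's TPM in each library.

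Promoters are shown for albumin, for the 3 fibrinogen chains, which lie side by side and have overlapping ratio intervals, and for Apoh and Rbp4, which lie toward opposite ends of the ratios. They are RefSeq windows on GRCm38.p6, from 250 bases before to 50 after an annotated start, 5′ to 3′ on the gene's strand. Capitals mark matches on either strand to motifs of 5 kinds. The HNF1 motif searched was GTTAAT and the HNF4 motif was CAAAGTC. For FOXA the letters were TGTTTAC and for C/EBP they were TTGCNNAA. The TATA box was searched as TATAAA. No matches to different motifs overlapped.
Alb (chr5:90460620-90460919, plus strand) holds an HNF1, an HNF4 and a C/EBP match.
Alb: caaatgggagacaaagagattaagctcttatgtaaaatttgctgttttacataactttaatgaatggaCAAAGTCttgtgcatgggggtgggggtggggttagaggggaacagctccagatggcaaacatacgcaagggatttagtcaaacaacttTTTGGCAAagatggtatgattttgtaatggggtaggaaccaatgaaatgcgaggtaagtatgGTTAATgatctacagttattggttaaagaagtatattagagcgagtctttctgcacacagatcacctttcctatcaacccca
Fga (chr3:83025903-83026202, plus strand) and Fgb (chr3:83049814-83050113, minus strand) each hold an HNF1 and a C/EBP match, and Fgg (chr3:83007474-83007773, plus strand) holds none of the 5 motifs.
Fga: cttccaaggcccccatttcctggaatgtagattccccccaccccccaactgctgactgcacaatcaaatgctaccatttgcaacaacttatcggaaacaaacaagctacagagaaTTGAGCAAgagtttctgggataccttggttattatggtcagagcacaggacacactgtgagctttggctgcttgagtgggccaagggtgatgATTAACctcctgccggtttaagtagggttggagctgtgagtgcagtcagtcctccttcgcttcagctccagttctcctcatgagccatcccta
Fgb: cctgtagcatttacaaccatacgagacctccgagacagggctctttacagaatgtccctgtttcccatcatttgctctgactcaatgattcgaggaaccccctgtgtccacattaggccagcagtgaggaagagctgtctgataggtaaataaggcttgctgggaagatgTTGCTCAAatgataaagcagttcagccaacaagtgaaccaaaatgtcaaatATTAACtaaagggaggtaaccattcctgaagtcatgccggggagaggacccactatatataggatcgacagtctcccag
Fgg: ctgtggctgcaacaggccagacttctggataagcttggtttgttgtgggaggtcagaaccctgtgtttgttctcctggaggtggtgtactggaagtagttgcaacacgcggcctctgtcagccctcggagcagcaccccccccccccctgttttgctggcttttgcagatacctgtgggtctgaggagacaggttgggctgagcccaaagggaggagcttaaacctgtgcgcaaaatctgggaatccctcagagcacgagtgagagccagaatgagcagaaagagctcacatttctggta
Apoh (chr11:108395047-108395346, plus strand) holds a FOXA match.
Apoh: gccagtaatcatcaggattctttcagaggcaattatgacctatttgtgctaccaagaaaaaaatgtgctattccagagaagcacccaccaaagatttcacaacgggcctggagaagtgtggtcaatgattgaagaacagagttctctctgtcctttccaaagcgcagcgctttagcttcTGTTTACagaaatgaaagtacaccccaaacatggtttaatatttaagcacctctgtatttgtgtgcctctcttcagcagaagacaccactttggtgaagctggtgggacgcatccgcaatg
Rbp4, at the downstream of its 2 annotated starts (chr19:38124762-38125061, minus strand), holds a TATA box and a C/EBP match.
Rbp4: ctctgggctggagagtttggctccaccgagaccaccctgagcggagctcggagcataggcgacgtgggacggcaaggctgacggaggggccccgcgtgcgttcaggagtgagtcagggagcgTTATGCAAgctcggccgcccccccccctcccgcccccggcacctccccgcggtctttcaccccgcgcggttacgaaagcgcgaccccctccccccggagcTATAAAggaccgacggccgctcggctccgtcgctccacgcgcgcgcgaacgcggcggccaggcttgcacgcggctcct

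Across the table, 27 members had 31 promoter windows, and 21 of these genes held at least 1 of the motifs. GTTAAT was found in 32.3% of the member windows and in 7.10% of all 32851 windows. For TTGCNNAA the shares were 35.5% and 10.8%, for CAAAGTC 12.9% and 4.44%, for TGTTTAC 12.9% and 3.65%, and for TATAAA 29.0% and 13.6%. The member windows are not all separate. Both Apoa5 windows overlap and hold the same TATAAA, so its 9 windows belong to 8 genes. Serpina1a and Serpina1b, near-identical copies, each count for GTTAAT and TTGCNNAA. The HNF1 letters were found in Alb, F2, Fga, Fgb, Gc, Itih1, Pzp, Serpina1a, Serpina1b and Vtn. A match of letters is a description of the window, and it does not show that a factor binds there.

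Among the other carriers, Ttr, Gc and Azgp1 were more than 12-fold higher in replicate 2, while Rbp4 and Orm1 had far smaller ratios. Ttr, which carries thyroxine and holds retinol-binding protein in plasma, had 492 counts (11.7 TPM) in replicate 2 and 38 counts (0.99 TPM) in replicate 1. It was 15.8-fold higher in replicate 2 (11.4 to 22.6). Gc, the vitamin D-binding protein, had 421 and 38 counts in replicates 2 and 1, a ratio of 13.5 (9.69 to 19.4). Azgp1, a zinc-binding glycoprotein with a fold like that of MHC class I, had 106 and 10 counts and a ratio of 12.9 (6.77 to 27.8). The 3 genes thus share a size of ratio, and none of them passed 1 TPM in replicate 1.

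Rbp4, the plasma carrier of retinol, had 536 counts (16.5 TPM) in replicate 2 and 312 counts (10.4 TPM) in replicate 1, a ratio of 2.10 (1.82 to 2.42). Orm1, the alpha-1-acid glycoprotein of the acute phase, had 392.4 counts in replicate 2 and 440.3 in replicate 1, or 14.95 and 18.4 TPM. Its ratio of 1.09 had an interval from 0.947 to 1.25, so no difference was detectable beyond counting error. Orm1 shares reads with the near-identical Orm2, and the sum over Orm1 to Orm3 gave 1.05 (0.928 to 1.18).

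The apolipoproteins ranged from 1.63-fold (Apoc1) to 23.6-fold (Apoh). Apoa1 and Apoa2, the main proteins of HDL, the particle from which adrenal cells take cholesterol esters through the receptor SR-BI, were low in replicate 1 and well measured in replicate 2. Apoa1 (chromosome 9, 46228580 to 46230466) had 722 counts (19.9 TPM) in replicate 2 and 64 counts (1.94 TPM) in replicate 1, a ratio of 13.8 (10.7 to 18.1). Apoa2 had 393 counts (25.95 TPM) and 26 counts (1.93 TPM), a ratio of 18.5 (12.4 to 28.6). Apob, the scaffold of LDL and very-low-density particles, had 2014 counts in replicate 2 and 155 in replicate 1, a ratio of 15.9 (13.5 to 18.8). Its transcript is long, so these counts correspond to 6.6 and 0.37 TPM. Apoh, which binds anionic phospholipids, had 193 and 10 counts in replicates 2 and 1 and the highest ratio of the set, 23.6 (12.5 to 49.9).

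Apoc1 behaved otherwise. This small apolipoprotein, which inhibits lipid transfer and receptor binding, stood at 67.1 TPM in replicate 2 and 55.8 TPM in replicate 1, from 872 and 653 counts. Its ratio was 1.63 (1.47 to 1.81). The other apolipoproteins of its gene cluster, which are not members, were present in both libraries too: Apoe at 285 and 345 TPM, Apoc4 at 13.6 and 12.7 TPM and Apoc2 at 0.68 and 0.58 TPM in replicates 2 and 1. Their log2 ratios were 0.08, 0.51 and 0.50.

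In the cluster on chromosome 9, where Apoa1, Apoc3, Apoa4 and Apoa5 lie within 43.3 kb, the ratios differed between neighbours. Apoc3, an inhibitor of lipoprotein lipase, had 123 counts in replicate 2 and 58 in replicate 1, a ratio of 2.59 (1.88 to 3.60), and its interval lay below that of Apoa1. Apoa5, an activator of the same lipase, had 78 and 27 counts and a ratio of 3.53 (2.25 to 5.69). Apoa4, made mainly in the intestine, had 7 and 3 counts, and its ratio of 2.85 had an interval from 0.650 to 17.1. Apom, an HDL protein that carries sphingosine-1-phosphate, had 7 and 2 counts and a ratio of 4.27 (0.814 to 42.2). For these last genes the depth could not show a difference.

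All 6 clotting genes were at least 6-fold higher in replicate 2, with Plg above the fibrinogen chains Fga and Fgg. The fibrinogen chains Fgg, Fga and Fgb lie within 42.1 kb on chromosome 3 (83007724 to 83049863) and encode the subunits of 1 protein. Fga had 456 counts in replicate 2 and 82 in replicate 1, Fgb 339 and 42, and Fgg 301 and 55. Their ratios of 6.79 (5.36 to 8.70), 9.86 (7.14 to 13.9) and 6.68 (5.0 to 9.08) had overlapping intervals. F2, prothrombin, had 178 and 24 counts in replicates 2 and 1, a ratio of 9.06 (5.89 to 14.5). Plg, plasminogen, which dissolves fibrin once activated, had 276 and 18 counts and lay higher, at 18.7 (11.6 to 32.1). Kng1, the precursor of bradykinin, had 159.8 and 26.1 counts and a ratio of 7.47 (4.94 to 11.9), with some reads shared with Kng2. Over both kininogen genes the ratio was 3.74 (2.91 to 4.83), so the split between them matters for Kng1.

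Protease inhibitors were all at least 6-fold higher in replicate 2. Serpina3k, a relative of human antichymotrypsin, had 1388.4 counts (18.3 TPM) in replicate 2 and 253.9 counts (3.67 TPM) in replicate 1, a ratio of 6.68 (5.83 to 7.66). Serpinc1, antithrombin, had 165 and 32 counts and a ratio of 6.30 (4.29 to 9.51). Pzp, a broad protease trap of the alpha-2-macroglobulin family, had 705 and 64 counts and a ratio of 13.5 (10.4 to 17.7). Serpina1a and Serpina1b, alpha-1-antitrypsin genes, had 243.8 and 583.5 counts in replicate 2, against 40.7 and 68.6 in replicate 1. The mouse carries several near-identical copies of this gene, so the split between them is uncertain, and the second transcript file gave Serpina1a 378.2 counts in replicate 2 and 56.1 in replicate 1. Summed over Serpina1a to Serpina1e, 2704.3 counts in replicate 2 and 297.2 in replicate 1 gave a ratio of 11.1 (9.86 to 12.6).

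The inter-alpha-trypsin inhibitor family was split. Its proteins bind hyaluronan in the extracellular matrix, and Ambp encodes the light chain bikunin together with alpha-1-microglobulin. Ambp had 175 counts in replicate 2 and 15 in replicate 1, a ratio of 14.2 (8.40 to 26). Of the heavy chains, which lie within 56.8 kb on chromosome 14, Itih1 had 88 and 12 counts and a ratio of 8.95 (4.88 to 18). Its neighbours were more evenly present: Itih3 had 122 and 66 counts, a ratio of 2.26 (1.66 to 3.09), and Itih4 had 339 and 160, a ratio of 2.59 (2.14 to 3.14). Both of these intervals lay below that of Itih1.

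Hemopexin and haptoglobin, which clear heme and hemoglobin from plasma, differed widely in ratio. Hpx, hemopexin, had 314 counts (5.78 TPM) in replicate 2 and 23 counts (0.47 TPM) in replicate 1, a ratio of 16.7 (10.9 to 26.7). Hp, haptoglobin, had 3524 counts (72.9 TPM) in replicate 2 and 3176 counts (76.2 TPM) in replicate 1, a ratio of 1.35 (1.29 to 1.42). It was the most abundant member in each library by TPM in the gene table, but in the second transcript file Apoc1, at 224 TPM, lay above Hp, at 217 TPM, in replicate 2. Of the adhesive and mineral-binding proteins, Ahsg, fetuin-A, had 837 and 104 counts in replicates 2 and 1, a ratio of 9.83 (8.01 to 12.2). Its relative Fetub had 124 and 41, a ratio of 3.69 (2.58 to 5.39). Vtn, vitronectin, had 268 and 45, a ratio of 7.27 (5.29 to 10.2).

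Because members differed in ratio, the makeup of the set differed between the libraries. Hp took 17.7% of the members' summed TPM in replicate 2 and 38.7% in replicate 1, Apoc1 16.2% and 28.4%, and Orm1 3.62% and 9.38%. Alb took 12.4% in replicate 2 and 3.68% in replicate 1. Relative to Alb within the same library, Hp stood at 1.42 times its TPM in replicate 2 and 10.5 times in replicate 1. Some genes whose ratio interval overlapped that of Alb kept nearly the same proportion to it. Ahsg stood at 0.324 and 0.297 of Alb, Fgb at 0.0457 and 0.0442, F2 at 0.0469 and 0.0470, and Serpina1b at 0.226 and 0.207. Others with an overlapping interval did not. Serpina1a stood at 0.0960 and 0.178 of Alb, Gc at 0.142 and 0.0912, and Fga at 0.113 and 0.157. The order of the 35 members by TPM in the 2 libraries had a Spearman's rho of 0.859, a description across genes that share their libraries.

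**Figure D3:**
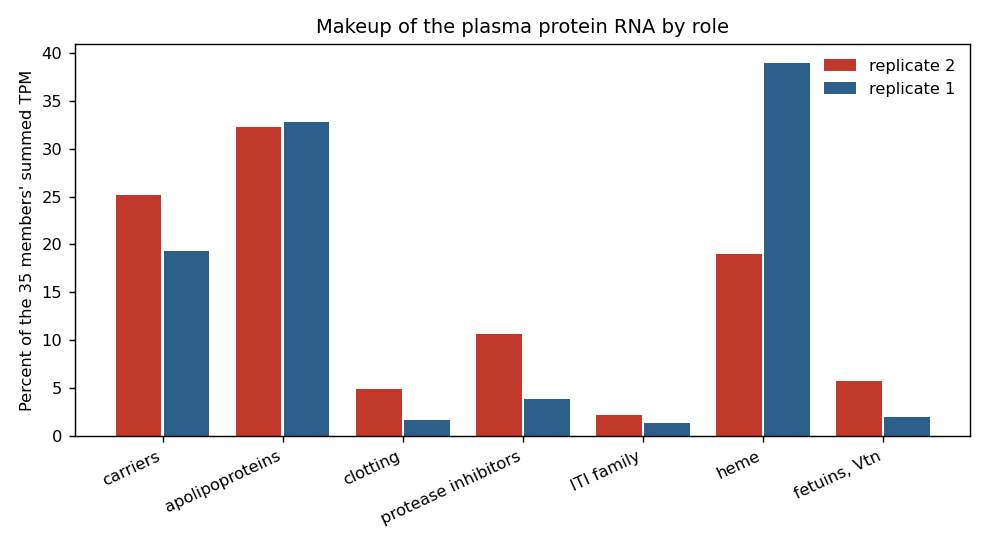
Percent of the 35 members' summed TPM (vertical axis, from 0) taken by each role in replicate 2 (left bar of a pair) and replicate 1 (right bar). The heme and hemoglobin group, nearly all Hp, took 19.0% in replicate 2 and 39.0% in replicate 1, while protease inhibitors took 10.6% and 3.85%.

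Transcript tables gave a readout that the choice of members did not use. In 29 of 35 members at least 90% of TPM lay in protein-coding transcripts in both libraries. Many of these, such as Apoa1, Ttr and Fetub, have only protein-coding transcripts annotated, so their 100% was fixed in advance. No share over all genes stands beside this count, which is not read as a trait of the members. The exceptions were Hp, Vtn, Serpinc1, Itih3, Itih4 and Pzp. Itih3 had 85.05% in coding transcripts in replicate 2 and 33.3% in replicate 1, the rest in a retained-intron transcript. For Serpinc1 the coding share was 63.4% in replicate 2 and 31.5% in replicate 1, with retained-intron and nonsense-mediated-decay transcripts taking the rest. Vtn had 85.7% and 69.1%, Pzp 88.5% and 64.9%, and Hp 99.7% and 88.0%. For Itih4 the share was lower in replicate 2, at 75.85%, than in replicate 1, at 96.3%. In replicate 1 these shares rest on 66 counts for Itih3 and 32 for Serpinc1. In the second transcript file the coding share of Itih3 was 67.4% and 45.2%, that of Serpinc1 52.6% and 33.2%, and that of Hp 68.0% and 60.8% in replicates 2 and 1. That file also put Apoc3 at 80.4% and 42.0% and Azgp1 at 96.8% and 0%, against 100% for both genes and libraries here.

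Counts were whole numbers within 0.01 for 30 members, so no read of theirs was shared out in fractions. Orm1, Kng1, Serpina1a, Serpina1b and Serpina3k were the 5 with shared reads. Annotated genes overlap 10 of the members, 8 of them on the opposite strand, including Prkca across Apoh, Slc22a3 across Plg and Zbtb37 across Serpinc1. The libraries were directional, but the sources used here do not state whether counting used the strand.

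**Figure D4:**
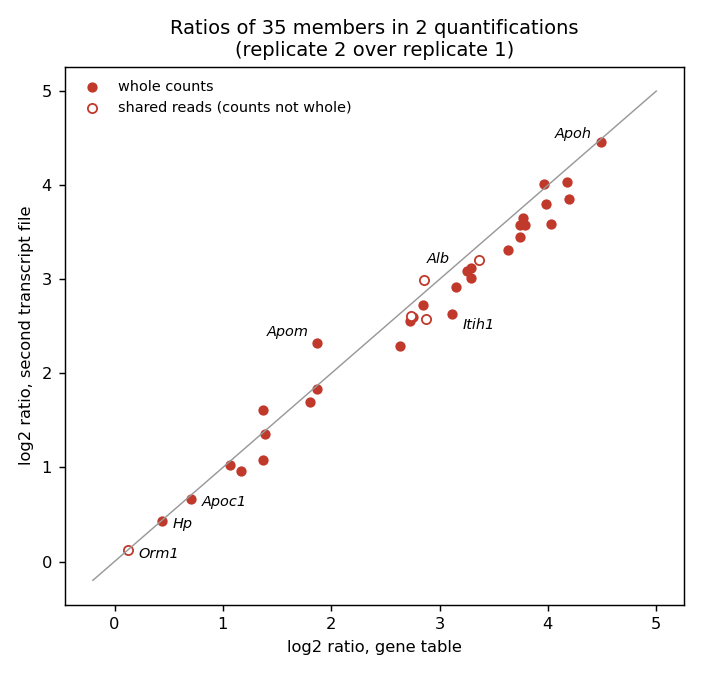
Log2 ratio of each member, replicate 2 over replicate 1, in the gene table (horizontal) and in the second transcript file (vertical), with the line of equal values. Points follow the line, 31 of the 35 lying below it, and no member differs by more than 0.49; open circles are the 5 members whose reads are shared with other genes.

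Other plasma protein genes, from lists of related genes, included some past 2-fold and some not. Over all 14780 genes tested, 5.12% were at least 2-fold higher in replicate 2. In these lists 4 of the 7 clotting genes tested and 5 of the 13 complement genes tested were under 1 CPM in replicate 1. Those genes passed the filter through replicate 2 alone. Of 15 other clotting genes 7 were tested and 8 were not, and of the 7 tested 5 were at least 2-fold higher in replicate 2 and 2 were not (median log2 ratio 1.67, or 3.12 over all 15 without the filter). Hrg, the histidine-rich glycoprotein, stood at 1.91 TPM in replicate 2 and 0.09 in replicate 1, while Pros1, protein S, stood at 11.2 and 20.0 TPM with a log2 ratio of -0.35. Of 13 complement genes tested, 6 were at least 2-fold higher and 7 were not (median 0.48). That median was 1.49 over 16 genes without the filter and 0.04 over the 7 with a mean of at least 5 CPM. C3, the central complement protein, stood at 72.8 and 69.8 TPM in replicates 2 and 1, C4b at 23.4 and 46.0, and C2 at 27.3 and 36.0. These 3 are known to be made in many tissues, and their log2 ratios lay between -0.14 and 0.48.

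Of 8 other carriers and precursors tested, 2 were past 2-fold, the major urinary protein genes Mup3 and Mup20, and 6 were not (median 0.36, or 0.82 without the filter). Mup3 stood at 10.2 TPM in replicate 2 and 1.05 in replicate 1, while Trf, transferrin, stood at 60.0 and 64.9 TPM. In scaled counts Trf was 1.31-fold (1.25 to 1.38) higher in replicate 2. Of 8 other apolipoprotein and lipid enzyme genes, 3 were past 2-fold and 5 were not (median 0.51). Of 10 paralogs of the member inhibitors, 6 were past 2-fold and 4 were not (median 2.30, or 1.06 without the filter), with Serpina1e at 23.1 TPM in replicate 2 and 2.64 in replicate 1. Serpina3c, at 2.53 and 6.42 TPM, and Serpina3n, at 2.59 and 5.49 TPM, had log2 ratios of -0.92 and -0.65. Of 4 other acute phase genes, 2 were past 2-fold (median 1.45), and Saa1, a serum amyloid A gene, stood at 3.13 and 0.29 TPM. Some genes of these lists passed the filter through replicate 2 alone, being under 1 CPM in replicate 1. They were 2 of the 8 carriers, 3 of the 8 lipid genes, 3 of the 10 paralogs and 2 of the 4 acute phase genes.

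Genes whose products stay in hepatocytes were also mostly higher in replicate 2. Of 32 such genes 22 were tested, of which 17 were at least 2-fold higher in replicate 2, 1 (G6pc) was 2-fold lower and 4 were not past 2-fold (median log2 ratio 3.30). Of these 22, 15 were under 1 CPM in replicate 1, and over the 6 with a mean of at least 5 CPM the median was 0.50. The 4 most abundant were present in both libraries. Pck1, the gatekeeper of gluconeogenesis, stood at 246 and 246 TPM in replicates 2 and 1, and Cyp2e1 at 82.0 and 75.7. Fah stood at 11.9 and 12.7 TPM, and Ass1 at 8.49 and 11.2. In scaled counts Pck1 was 1.37-fold (1.34 to 1.39), Cyp2e1 1.46-fold (1.40 to 1.52) and Fah 1.25-fold (1.12 to 1.40) higher in replicate 2. For Ass1 the ratio was 1.05 (0.932 to 1.18). Of the hepatocyte transcription factors 1 of 6 tested was past 2-fold, Hnf4a, with 101 counts in replicate 2 and 12 in replicate 1. Their median log2 ratio was 0.51, or 1.51 over all 13 listed without the filter. Cebpa stood at 40.5 and 37.4 TPM and Prox1 at 9.85 and 8.31 TPM.

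**Figure D5:**
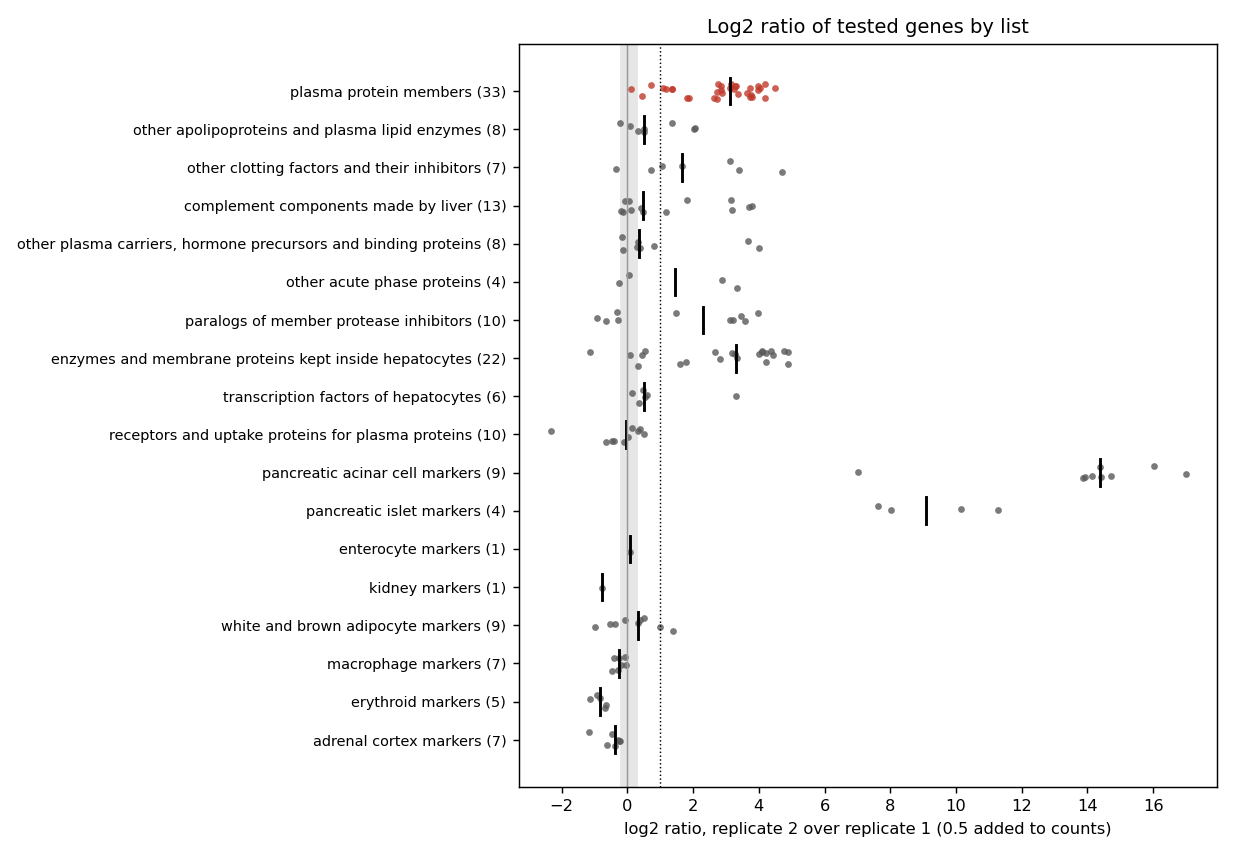
Log2 ratio of each tested gene, replicate 2 over replicate 1, by list (number tested in brackets), with the list median as a black bar, all tested genes between their quartiles as a grey band and 2-fold as a dotted line. Members sit around 3.11, pancreatic acinar genes far to the right, and fat, macrophage, erythroid and adrenal cortex genes near or below 0; values of genes at 0 counts in replicate 1 depend on the 0.5 added.

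Markers of other tissues are given beside these ratios, and their part in the result was not tested. The 10 pancreatic acinar genes summed to 297202 counts in replicate 2 and 178 in replicate 1, and 5 of them had 0 counts in replicate 1. The 7 islet genes summed to 1689 counts and 1 count. Each of the 35 plasma protein members had at least 2 counts in replicate 1. Of the other lists, 2 of 15 clotting and 1 of 16 complement genes had 0 counts there. So did 2 of 10 acute phase genes and 1 of 32 genes whose products stay in hepatocytes. Of 13 carriers, 2 had 0 counts in both libraries. None of the 12 lipid genes, 12 inhibitor paralogs or 13 transcription factors had 0 counts in replicate 1. Enterocyte genes summed to 0.80 and 0.50 TPM and kidney genes to 0.97 and 1.5 TPM in replicates 2 and 1. Of 7 enterocyte genes, 2 had 0 counts in replicate 2 and 4 in replicate 1, with Sis and Alpi at 0 in both. Of 8 kidney genes, 5 had 0 counts in replicate 2 and 7 in replicate 1. Slc34a1, Kap, Slc12a1 and Slc22a6 were at 0 in both.

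The 9 fat cell markers all reached 1 TPM in both libraries and summed to 2158 TPM in replicate 2 and 2246 in replicate 1, with 1 of 9, Ucp1, past 2-fold (median log2 ratio 0.31). Fabp4 led them at 1038 and 1082 TPM. The 7 macrophage genes summed to 83.8 and 140 TPM (median -0.26), and all 7 were lower in replicate 2. The 5 Kupffer cell genes summed to 0.72 and 0.84 TPM, none of them reaching 1 CPM in mean. The 5 erythroid genes summed to 1358 TPM in replicate 2 and 3174 in replicate 1 (median -0.83), and all 5 were lower in replicate 2.

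Of 12 listed genes for receptors through which tissues take up these proteins, 8 reached 1 TPM in both libraries. Of 10 tested, none was 2-fold higher in replicate 2, 1 was at least 2-fold lower (log2 ratio -2.34) and 9 were not past 2-fold. Their median log2 ratio was -0.04. Scarb1, which encodes the HDL receptor SR-BI, stood at 655 TPM in replicate 2 and 1405 in replicate 1 (log2 ratio -0.65). Lrp1, a receptor for remnants and protease complexes, stood at 42.8 and 58.0 TPM, Abca1, which loads apolipoprotein A-I with cholesterol, at 34.5 and 44.8, and Fcgrt, which rescues albumin from breakdown, at 30.5 and 35.1.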

How the data were processed

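Per the labels, total RNA of adrenal glands was purified with an animal tissue kit and made into libraries with a directional kit. The authors deposited, per library, a gene and a transcript table of expected counts and TPM, derived from a transcriptome alignment, and a second transcript table of estimated counts and TPM, derived from the reads (mm10, GENCODE M21, per the file headers). The quantifying programs: not given in the sources used here. The gene table also holds the authors' posterior SD of counts, another number that was not used in ratios.

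The members and all gene lists, motifs and tests were chosen with earlier results of these data known. Every member is named; of other lists, the text names up to 4 genes by mean TPM, paralogs of the inhibitors, plus Apoc2 and genes behind a count, which were chosen after their values were seen. The 26345 entries that name no gene (1.50% and 0.843% of counts in replicates 2 and 1) were left out. Library sizes were scaled by TMM (edgeR 4.0.16, R 4.3.3; factors 0.982 and 1.02) over the 14780 genes averaging 1 CPM or more. Log2 ratios add 0.5 to counts; folds do not. Intervals are exact (Clopper-Pearson) on counts rounded to whole numbers. Called means at least 2-fold. Each member's interval is at the 95% level. With 1 library on each side, no p-value is given. The ratio was tested on simulated data with known changes and counting error only. Such data hold no spread between animals or preparations, so they cannot show how the intervals fare with it. Alternatives used DESeq2 1.42.0 size factors, total and spike-in counts, other filters, pseudocounts, thresholds and the second file. Other software was Python 3.11.15 with scipy 1.17.1, numpy 2.4.6, matplotlib 3.10.9 and pandas 2.3.3. Promoters are RefSeq windows on GRCm38.p6; 8 members had none in that table and are not shown. Some genes of the other lists are not reported here.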

Additional observations from a re-analysis of the deposited data

How the results depend on the processing

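The number of members at least 2-fold higher in replicate 2 was 30 here. It was between 24 and 32 under every other scaling, pseudocount and file tried, and without a filter. With a mean CPM of at least 5 it was 17, because only 20 members were then tested. Scaling by spike-in counts shifts the median log2 ratio of all genes to -0.88 and that of the members to 2.22. Orm1, Hp and Apoc1 are then lower in replicate 2 (log2 ratios -0.77, -0.45 and -0.19), none of them past 2-fold, and 237 genes in all are at least 2-fold higher, against 756 here. With spike-in scaling the medians of other lipid genes (-0.39), complement (-0.41), other carriers (-0.53), hepatocyte transcription factors (-0.39) and fat markers (-0.59) also turn negative. The number of genes at least 2-fold higher was 5653 of 26664 without a filter and 182 of 11093 with a mean CPM of at least 5. At least 1.5-fold higher were 31 of 33 members and 1775 of 14780 genes. At least 4-fold higher were 24 of these members and 218 of these genes. The median over members lay between 2.80 and 3.27 in the other settings, 2 of them chosen after seeing the data: members with whole counts (3.20) and members with at least 1 CPM in each library (2.80). Summed TPM of members, 305 in mean here, was 1206 when rescaled over nuclear protein-coding genes and 771 in the second transcript file, and lay between 197 and 413 with 1 replicate left out. Members present in both libraries numbered 33 at 0.1 TPM, 33 at 10 expected counts and 22 at 1 TPM in the second file, against 14 here. For those other settings no count over all genes stands beside the members, so they are not read as a trait of the set. A ratio cannot be formed with a replicate left out. No paired analysis was possible because the series holds 1 group. Members with under 30 counts in replicate 1 have intervals that span a factor of 2 or more.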
